A study of Homo sapiens with 6 samples.

Results

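The genes described here are 10 immediate early and ERK-induced genes, taken from the 64252 rows of the gene count table by matching Ensembl identifiers to the symbols FOS, FOSB, JUN, JUNB, JUND, EGR1, IER2, DUSP4, DUSP6 and SPRY4. All 10 had a row and all 10 passed the filter on low counts. The RNA-seq libraries came from bulk cultures of SK-N-BE(2), a human neuroblastoma cell line with amplified MYCN. There were 2 libraries with hairpin 1 against BCAT1 (shBCAT1#1), 2 with hairpin 2 against BCAT1 (shBCAT1#2) and 2 with a control hairpin (shControl, also called shNC). BCAT1 is the cytosolic branched-chain amino acid transaminase, and the series title links it to stabilization of N-Myc. The labels give no drug, stimulus, serum condition or time after knockdown, and they do not say whether cells were pools or clones, or whether replicates were separate cultures. The p-values therefore measure the spread between these libraries, which may be technical.

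Immediate early genes are transcribed within minutes of a stimulus, without new protein synthesis, and their mRNAs are short-lived. JUN and FOS family proteins pair through leucine zippers to form AP-1, EGR1 is a zinc finger transcription factor, and IER2 is a small nuclear protein of the same early response. The RAS-ERK kinase cascade drives many of these genes through ternary complex factors and SRF, and it also induces its own inhibitors: DUSP4 and DUSP6 dephosphorylate ERK, and SPRY4 is a Sprouty protein that restrains signalling upstream of ERK. In neuroblastoma the cascade can be driven by receptors such as ALK and by mutations of the RAS pathway.

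Total counts ran from 32333416 to 39321388 per library. BCAT1 mRNA, the target of the hairpins, stood at 55.7 and 55.3 CPM (raw counts divided by TMM-adjusted library size) in shBCAT1#1 libraries, 115 and 111 CPM in shBCAT1#2 libraries and 459 and 475 CPM in shControl libraries. Of 13 sympathoadrenal neuroblastoma markers, 12 had over 1 CPM in every group. Their sum was 3820 to 3920 CPM with hairpin 1, 3090 to 3200 CPM with hairpin 2 and 4170 CPM in both control libraries. MYCN was the largest single part, at 1820 and 1830 CPM, 1700 and 1810 CPM, and 2250 and 2270 CPM in the same groups. Of the 12 tested markers, 7 were higher and 5 lower with hairpin 1, where 24.2% of all genes were higher and 24.9% lower. With hairpin 2, 1 was higher and 10 were lower, where 23.9% of all genes were higher and 25.4% lower. Summed markers of fibroblasts were 887 to 889 CPM with hairpin 1, 1010 to 1020 CPM with hairpin 2 and 1380 to 1390 CPM in control libraries. Summed leukocyte markers were 31.9 to 37.2 CPM, 17.1 to 20.2 CPM and 37.9 to 42.6 CPM in the same groups, most of it CD68, while PTPRC stayed under 1 CPM. Epithelial markers summed to 18.8 to 27.5 CPM over all libraries and endothelial markers to 6.14 to 7.42 CPM. All libraries are labelled as the same cell line, so these markers describe transcripts and do not show that cells of other types were present. A change in the share of cells and a change in RNA per cell cannot be told apart in bulk samples. The part of these markers in the results was not tested.

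DUSP6, JUNB and IER2 were lower with both hairpins, EGR1 was lower with hairpin 2 alone among the single-hairpin tests, and SPRY4 was higher with hairpin 1. FOS, FOSB, JUN, JUND and DUSP4 did not pass against control with either hairpin as counted. A correction for GC content and transcript length, described below, ended the JUNB call with hairpin 1 and the IER2 call with hairpin 2. The same correction gave calls to all of the genes that had not passed. FOS and JUN were then higher with hairpin 1, and JUND was higher with both hairpins. With hairpin 2, FOSB was then higher and DUSP4 lower. Over both hairpins against control, 5 of the 10 genes passed edgeR's quasi-likelihood test at a Benjamini-Hochberg adjusted p under 0.05, 1 higher and 4 lower, where 50% of all 18734 tested genes were called, 23.6% higher and 26.4% lower. With hairpin 1 there were 4 calls, 1 higher and 3 lower, against 49.1% of all genes (24.2% higher and 24.9% lower), and with hairpin 2 there were 4 calls, all lower, against 49.3% (23.9% higher and 25.4% lower). These shares are near the background, so the number of calls is not itself a result about these genes. The median log2 fold change of the 10 genes was −0.03 over both hairpins, 0.02 with hairpin 1 and −0.17 with hairpin 2, beside −0.01 over all genes in each comparison. Under edgeR's glmTreat with a minimum fold of 1.5, JUNB with hairpin 2 passed (adjusted p = 0.04) and was the only one of the 10 to pass in any of the 4 comparisons, where 5.55% of all genes passed over both hairpins, 9.44% with hairpin 1, 7.46% with hairpin 2 and 9.47% between hairpins.

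**Figure D1:**
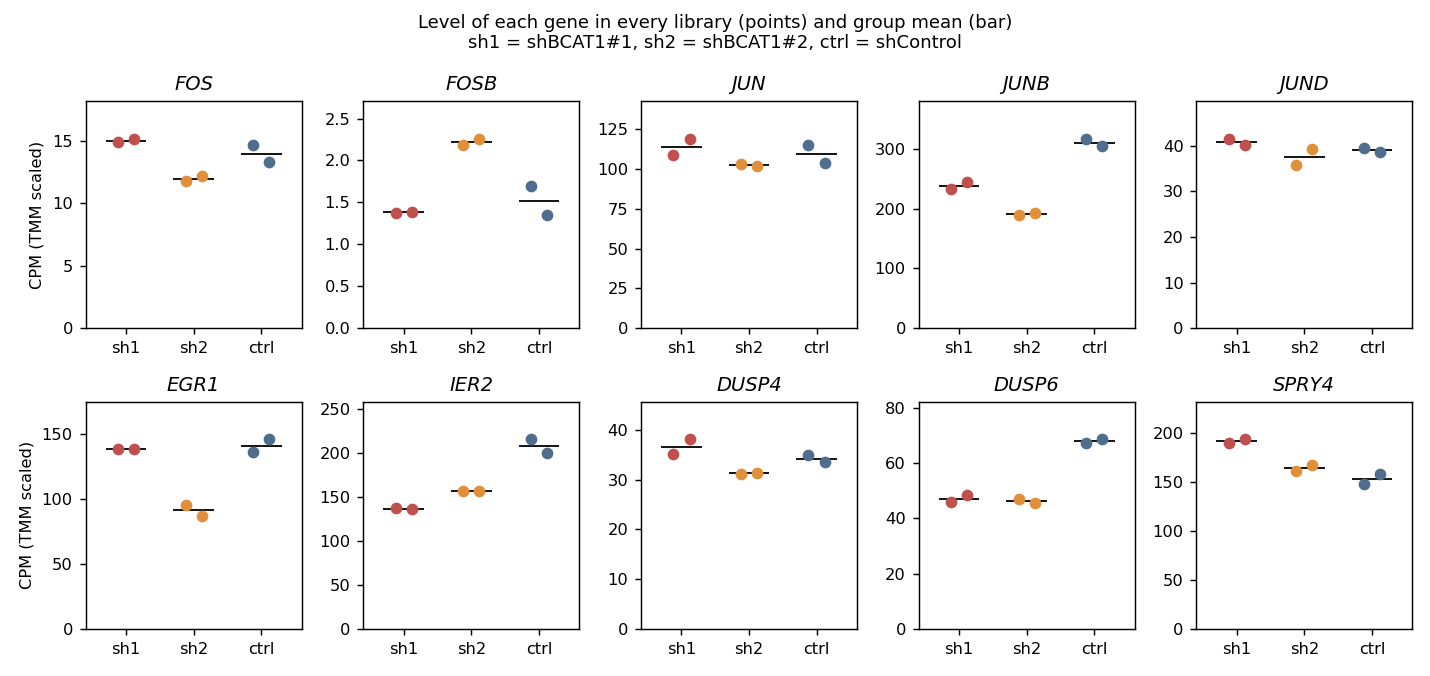
TMM-scaled CPM of each gene in every library (points) with the group mean (bar), for shBCAT1#1, shBCAT1#2 and shControl, 2 libraries each; each y axis starts at 0 and has its own scale. JUNB, IER2 and DUSP6 lie below both control libraries in all 4 knockdown libraries, and EGR1 does so only with hairpin 2.

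JUNB, the AP-1 subunit that can oppose JUN at some promoters, was the most abundant of the 10 transcripts per kb of exon (ENSG00000171223, chromosome 19, 12791496 to 12793315, plus strand, hg38). It had 232 and 244 CPM with hairpin 1, 189 and 192 CPM with hairpin 2, and 317 and 304 CPM in control libraries. All 4 knockdown libraries lay below both controls, and the hairpin 2 libraries were the lowest. JUNB fell 1.31-fold with hairpin 1 (log2 value −0.38 with an SE of 0.04, edgeR adjusted p = 0.00013) and 1.63-fold with hairpin 2 (−0.70, SE 0.04, edgeR adjusted p = 7.6e-06). The call with hairpin 1 was lost after the correction for GC content and transcript length (−0.01, edgeR adjusted p = 0.81), and with hairpin 2 the value became −0.24 (edgeR adjusted p = 0.00074). A 259-base stretch of its exons overlaps HOOK2 on the opposite strand, and whether counting used strand is not given in the sources used here, so part of its reads may belong there.

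JUN, the founding AP-1 subunit and the substrate of JNK (ENSG00000177606, chromosome 1, 58780788 to 58784327, minus strand), had 109 and 119 CPM with hairpin 1, 103 and 102 CPM with hairpin 2, and 115 and 104 CPM in control libraries. The hairpin 1 and control libraries overlapped. Its log2 fold change was 0.06 with hairpin 1 (95% confidence interval −0.08 to 0.20) and −0.09 with hairpin 2 (−0.23 to 0.05). JUND, the JUN family member that is expressed most steadily in resting cells (ENSG00000130522, chromosome 19, 18279760 to 18281622, minus strand), had 41.6 and 40.2 CPM, 35.8 and 39.3 CPM, and 39.5 and 38.6 CPM in the same groups. Its log2 fold change was 0.07 with hairpin 1 (95% confidence interval −0.08 to 0.22) and −0.06 with hairpin 2 (−0.21 to 0.09). Neither gene passed against control (edgeR adjusted p = 0.45 and 0.27 for JUN, 0.43 and 0.51 for JUND, hairpins 1 and 2). After the correction for GC content and length, JUN was higher with hairpin 1 (0.19, edgeR adjusted p = 0.0062) and JUND was higher with both hairpins (0.47 and 0.40, edgeR adjusted p = 0.00022 and 0.00079).

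FOS, the partner of JUN, with a very short-lived transcript (ENSG00000170345, chromosome 14, 75278774 to 75282230, plus strand), was present at a low level. It had 14.9 and 15.2 CPM with hairpin 1, 11.8 and 12.2 CPM with hairpin 2, and 14.7 and 13.3 CPM in control libraries. The hairpin 2 libraries were the lowest of the 6, and the groups did not overlap, but the difference from control did not pass (log2 fold change −0.22, SE 0.09, 95% confidence interval −0.44 to −0.01, edgeR adjusted p = 0.083). With hairpin 1 the value was 0.10 (SE 0.09, edgeR adjusted p = 0.40), which became 0.28 after the correction (edgeR adjusted p = 0.015). FOSB, a close relative of FOS (ENSG00000125740, chromosome 19, 45467995 to 45475179, plus strand), had 53 and 45 counts with hairpin 1, 88 and 88 counts with hairpin 2, and 64 and 50 counts in control libraries. These are 1.37 and 1.39 CPM, 2.18 and 2.26 CPM, and 1.69 and 1.35 CPM. FOSB was highest in both hairpin 2 libraries, at a log2 fold change of 0.54 against control that did not pass (SE 0.21, edgeR adjusted p = 0.06) but did after the correction (0.75, edgeR adjusted p = 0.018).

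EGR1 (ENSG00000120738, chromosome 5, 138465490 to 138469315, plus strand) separated the hairpins. It had 139 and 139 CPM with hairpin 1, 95.7 and 87.2 CPM with hairpin 2, and 136 and 146 CPM in control libraries. Both hairpin 1 libraries lay between the control libraries, and both hairpin 2 libraries lay well below them. EGR1 fell 1.54-fold with hairpin 2 (log2 value −0.62 with an SE of 0.06, edgeR adjusted p = 4.5e-05), and with hairpin 1 its log2 fold change was −0.02 (95% confidence interval −0.15 to 0.11, edgeR adjusted p = 0.80). The call over both hairpins (−0.32, SE 0.05, edgeR adjusted p = 0.00063) is the average of these. After the correction the value with hairpin 2 was −0.41 (edgeR adjusted p = 0.00021).

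IER2 (ENSG00000160888, chromosome 19, 13150415 to 13154908, plus strand) had 137 and 136 CPM with hairpin 1, 157 and 156 CPM with hairpin 2, and 215 and 200 CPM in control libraries. All 4 knockdown libraries lay below both controls, with hairpin 1 the lower. IER2 fell 1.52-fold with hairpin 1 (log2 value −0.60 with an SE of 0.05, edgeR adjusted p = 1.5e-05) and 1.33-fold with hairpin 2 (−0.41, SE 0.05, edgeR adjusted p = 0.00013). After the correction the value with hairpin 1 was −0.37 (edgeR adjusted p = 1.5e-05), and with hairpin 2 the call was lost (−0.09, edgeR adjusted p = 0.068). A 946-base part of its exons overlaps AC011446.2 on the opposite strand, so a share of its reads is uncertain.

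Among the feedback genes, DUSP6, the cytoplasmic phosphatase that acts on ERK (ENSG00000139318, chromosome 12, 89347232 to 89353271, minus strand), gave nearly the same value with each hairpin. It had 45.8 and 48.4 CPM with hairpin 1, 46.9 and 45.7 CPM with hairpin 2, and 67.5 and 68.6 CPM in control libraries. The knockdown libraries overlapped each other and all lay below the controls. DUSP6 fell 1.45-fold with hairpin 1 (log2 value −0.53 with an SE of 0.05, edgeR adjusted p = 5.7e-05) and 1.47-fold with hairpin 2 (−0.56, SE 0.05, edgeR adjusted p = 5.2e-05). The hairpins differed by −0.02 (95% confidence interval −0.14 to 0.10, edgeR adjusted p = 0.75). DUSP6 passed against control in each of the alternatives run other than the fold threshold of 1.5, with values from −0.64 to −0.49 with hairpin 1 and from −0.67 to −0.53 with hairpin 2. Of its 4632 exonic bases, 1875 overlap AC024909.2 on the opposite strand, so part of its reads may belong there.

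DUSP4, the nuclear counterpart that also acts on ERK (ENSG00000120875, chromosome 8, 29333064 to 29350668, minus strand), had 35.2 and 38.1 CPM with hairpin 1, 31.2 and 31.4 CPM with hairpin 2, and 34.9 and 33.5 CPM in control libraries. It was highest with hairpin 1 and lowest with hairpin 2, and neither difference from control passed (log2 fold change 0.10 and −0.13, SE 0.07 each, edgeR adjusted p = 0.25 and 0.14). After the correction, DUSP4 was lower with hairpin 2 (−0.18, edgeR adjusted p = 0.034). SPRY4 (ENSG00000187678, chromosome 5, 142310427 to 142326455, minus strand) had 189 and 193 CPM with hairpin 1, 161 and 167 CPM with hairpin 2, and 148 and 158 CPM in control libraries. All 4 knockdown libraries exceeded both controls. SPRY4 rose 1.25-fold with hairpin 1 (log2 value 0.32 with an SE of 0.05, edgeR adjusted p = 0.00055), while its value with hairpin 2 was 0.10 (SE 0.05, edgeR adjusted p = 0.10), which passed without replicate 2 of the control (0.15, edgeR adjusted p = 0.041). Of the 3 feedback genes as counted, DUSP6 was thus lower with both hairpins, SPRY4 was higher with hairpin 1, and DUSP4 did not pass.

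**Figure D2:**
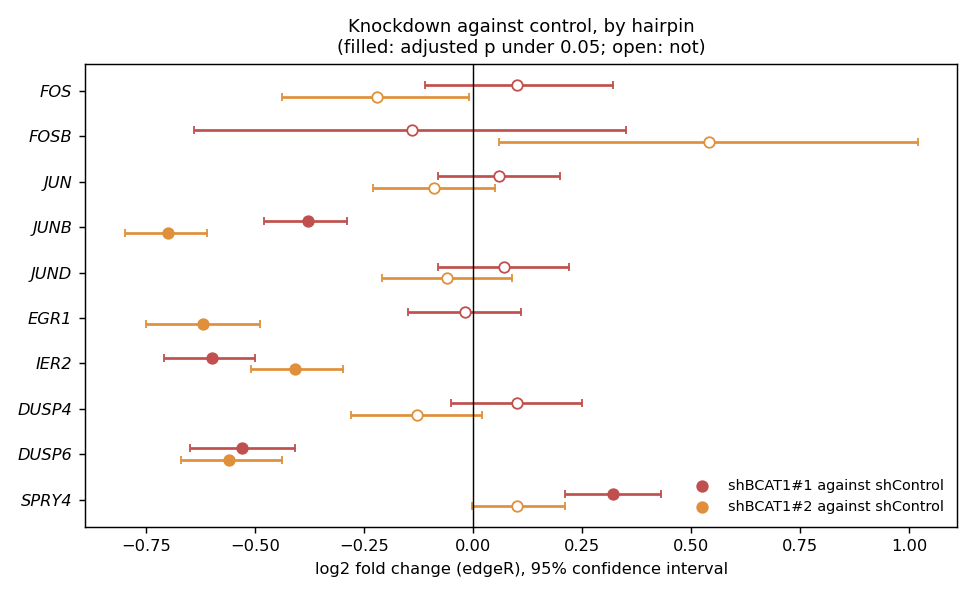
Log2 fold change of each gene with hairpin 1 (upper point of each pair) and hairpin 2 (lower point) against control, with 95% confidence intervals from edgeR, 2 libraries per group; filled points have an adjusted p under 0.05. DUSP6 has nearly the same value with both hairpins (−0.53 and −0.56), and EGR1 departs from 0 only with hairpin 2 (−0.62).

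Hairpin 2 was also tested directly against hairpin 1. In this comparison the control libraries enter through the filter on low counts, the TMM scaling and the shared estimate of spread. Of the 10 genes, 7 passed, 2 higher and 5 lower with hairpin 2, where 46.2% of all genes were called, 22.9% higher and 23.3% lower. EGR1 differed most among those lower with hairpin 2 (log2 difference −0.60, SE 0.06, edgeR adjusted p = 5.2e-05), followed by FOS (−0.33, SE 0.09, edgeR adjusted p = 0.021), JUNB (−0.32, SE 0.04, edgeR adjusted p = 0.00042), DUSP4 (−0.23, SE 0.07, edgeR adjusted p = 0.022) and SPRY4 (−0.22, SE 0.05, edgeR adjusted p = 0.0049). FOSB (0.69, SE 0.21, edgeR adjusted p = 0.027) and IER2 (0.19, SE 0.05, edgeR adjusted p = 0.0088) were higher with hairpin 2. The calls of FOS and FOSB were lost without any one of the 4 knockdown libraries, and the FOSB call also in DESeq2 (adjusted p = 0.12). Those of DUSP4 were lost without replicate 2 of hairpin 1 or either library of hairpin 2, and those of IER2 and SPRY4 without replicate 1 of hairpin 2, which left 2 calls, those of EGR1 and JUNB. JUN (−0.15, SE 0.06, edgeR adjusted p = 0.081) passed in a fit to the compared groups alone (−0.15, edgeR adjusted p = 0.043). Its value was −0.21 without replicate 1 of hairpin 1 and −0.15 without replicate 1 of the control. BCAT1 itself was 2.04-fold higher with hairpin 2 than with hairpin 1 (log2 difference 1.03, SE 0.04, edgeR adjusted p = 7.3e-07).

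Upstream sequences are shown for the 4 genes that were lower in the knockdown cells. For contrast, that of FOS is shown, which did not pass against control as counted. They are the 250 bases before the RefSeq transcription start (GRCh38.p14), 5′ to 3′ on the strand of the gene: chr19:12791236-12791485 (plus) for JUNB, chr19:13150161-13150410 (plus) for IER2, chr5:138465229-138465478 (plus) for EGR1, chr12:89352502-89352751 (minus) for DUSP6 and chr14:75278578-75278827 (plus) for FOS. Capitals mark matches, on either strand, to the CArG box (the binding motif of SRF, searched by its consensus), TGACG (the core of the cAMP response element), TGACGTCA (the full element), TGANTCA (AP-1), GCGNGGGCG (EGR proteins) and CCGGAAG (ETS factors). The element that binds TBP near many start sites was searched by the letters TATAAA and is named the TATA box below. TGACG lies within TGACGTCA, so a full element counts as both.
JUNB: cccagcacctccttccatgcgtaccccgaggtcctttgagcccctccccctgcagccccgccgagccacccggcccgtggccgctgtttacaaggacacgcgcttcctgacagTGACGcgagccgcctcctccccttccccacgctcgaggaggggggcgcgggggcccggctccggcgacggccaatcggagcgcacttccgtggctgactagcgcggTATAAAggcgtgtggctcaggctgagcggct
IER2: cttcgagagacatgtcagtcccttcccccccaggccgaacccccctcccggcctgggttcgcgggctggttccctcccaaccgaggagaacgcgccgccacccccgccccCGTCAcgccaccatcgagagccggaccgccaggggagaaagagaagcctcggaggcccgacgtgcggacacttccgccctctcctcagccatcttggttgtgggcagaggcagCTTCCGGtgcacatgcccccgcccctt
EGR1: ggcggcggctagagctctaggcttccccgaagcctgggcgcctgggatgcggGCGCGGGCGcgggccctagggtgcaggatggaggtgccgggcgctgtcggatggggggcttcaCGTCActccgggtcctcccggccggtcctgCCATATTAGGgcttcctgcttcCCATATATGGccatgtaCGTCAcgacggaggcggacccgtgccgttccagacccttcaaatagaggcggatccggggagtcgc
DUSP6: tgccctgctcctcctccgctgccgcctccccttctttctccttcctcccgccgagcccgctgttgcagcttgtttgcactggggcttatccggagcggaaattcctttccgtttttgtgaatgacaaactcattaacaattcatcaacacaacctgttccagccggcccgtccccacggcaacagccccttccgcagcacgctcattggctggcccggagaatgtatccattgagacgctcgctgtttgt
FOS: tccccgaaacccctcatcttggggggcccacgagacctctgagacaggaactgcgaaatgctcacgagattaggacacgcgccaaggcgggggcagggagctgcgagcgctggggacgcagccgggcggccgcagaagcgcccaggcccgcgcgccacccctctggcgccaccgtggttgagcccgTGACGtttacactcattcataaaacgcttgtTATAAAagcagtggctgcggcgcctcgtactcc

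EGR1 held 2 CArG boxes, at bases −105 to −96 and −83 to −74 from its start, and 1 match to the EGR motif at −198 to −190. Of the 9 upstream regions available among the 10 genes, that of EGR1 alone held a CArG box within these 250 bases. Of all 35116 upstream regions of the same length, 1.16% held one. Bases farther upstream were not searched, so FOS and the others may hold a CArG box outside this window. TGACG was found in 8 of the 9, all but DUSP6, and in 21.2% of all regions. A TATA box was found in FOS, FOSB and JUNB (10.7% of all regions), the ETS letters in IER2 (8.52%), the EGR letters in EGR1 and SPRY4 (8.41%) and the full TGACGTCA in JUND (1.65%). TGANTCA was found in 0 of the 9 and in 6.57% of all regions. DUSP6 held none of these letters within this window. The share of matches depends on base composition, which ran from 57.2% GC in the DUSP6 window to 74.8% in that of JUND.

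Levels were next scaled to exon length, since counts alone do not rank genes. In control libraries JUNB led at 171 ± 5 CPM per kb (SD, n = 2), followed by IER2 (67.6 ± 3.6), EGR1 (44.8 ± 2.3), JUN (30.8 ± 2.2), SPRY4 (23.3 ± 1.1), JUND (21 ± 0.32), DUSP6 (14.7 ± 0.17), DUSP4 (4.71 ± 0.13), FOS (4.33 ± 0.3) and FOSB (0.274 ± 0.043 CPM per kb). The order was the same in all 3 groups, and the replicate ranges of neighbours were separate except for EGR1 (29.1 ± 1.9) and JUN (29 ± 0.15 CPM per kb) with hairpin 2, which overlapped.

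JUNB made up most of the JUN family transcripts, at 70.6% and 70.9% of the length-scaled sum of JUN, JUNB and JUND with hairpin 1, 68.3% and 67.8% with hairpin 2, and 76.5% and 77% in control libraries. The JUN share was 17% and 17.8%, 19.1% and 18.6%, and 14.2% and 13.5% in the same groups. The family sum was 181 and 189 CPM per kb with hairpin 1, 152 and 156 CPM per kb with hairpin 2, and 228 and 217 CPM per kb in control libraries, so the knockdown libraries were all lower. In the FOS family, FOSL1 and FOSL2, the FOS-related subunits without the strong transactivation domain of FOS, outweighed FOS and FOSB. FOSL1 was singled out after its values were seen. FOS made up 9.24% and 9.86% with hairpin 1, 7.79% and 7.73% with hairpin 2, and 8.07% and 7.06% in control libraries. FOSL1 stood at 45.4 and 40.6 CPM, 40.9 and 44.7 CPM, and 54 and 55.7 CPM, and it was lower with each hairpin (log2 fold change −0.35 and −0.36, SE 0.07 each, edgeR adjusted p = 0.0037 and 0.0032). Both FOSL1 calls were lost after the correction for GC content and length, where the values were 0.01 and 0.11 (edgeR adjusted p = 0.95 and 0.22). These shares are descriptions without a test, and they rest on counts without that correction.

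**Figure D3:**
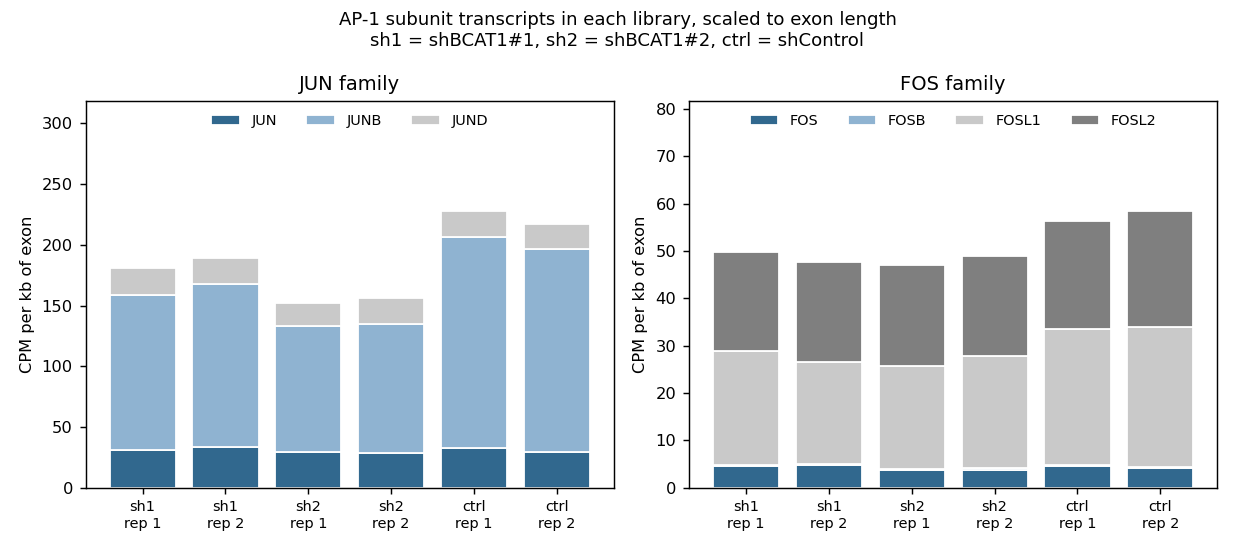
Length-scaled transcript levels (CPM per kb of exon) of the JUN family (left) and the FOS family (right) in each of the 6 libraries, stacked by gene. JUNB is the largest part of every JUN family bar, from 67.8% to 77%, and FOSL1 with FOSL2 fill most of every FOS family bar.

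Fold changes in this data set followed base composition and transcript length, and these genes are rich in GC. Over 13907 protein-coding genes the fold change and the GC content of the longest transcript had a Spearman correlation of −0.30 with hairpin 1 and −0.45 with hairpin 2. With the length of that transcript the correlation was 0.33 with hairpin 1 and 0.40 with hairpin 2. Genes are no independent replicates in these correlations. Of the 10 genes, 9 lay above the median GC content of 48.8%. GC content was 69.7% for JUND, 64.9% for JUNB and 61.7% for IER2, and 46.7% for DUSP6. Protein-coding genes with 64% to 66% GC, the range of JUNB, had a median log2 fold change of −0.29 with hairpin 1 and −0.35 with hairpin 2. Genes with 46% to 48% GC, the range of DUSP6, had medians of 0.06 and 0.07. With a per-library correction for GC content and length, 7 of the 10 genes passed over both hairpins, 3 higher (JUN, JUND and SPRY4) and 4 lower (JUNB, EGR1, IER2 and DUSP6), where 51.8% of the 13907 genes were called, 23.1% higher and 28.7% lower. With hairpin 1 there were 4 higher and 2 lower, against 56.4% of genes called (27.9% higher and 28.5% lower), and with hairpin 2 there were 2 higher and 4 lower, against 51.3% (23.6% higher and 27.7% lower). Between hairpins 2 were higher and 5 lower, against 59.5% (29% higher and 30.5% lower). DUSP6 moved to −0.65, IER2 to −0.23, EGR1 to −0.15 and JUNB to −0.12 (edgeR adjusted p = 1.1e-06, 0.00018, 0.029 and 0.012). Such a correction also removes any real change that follows GC content or length. How much of either trend is technical was not tested, and the parts of GC content and length were not separated.

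**Figure D4:**
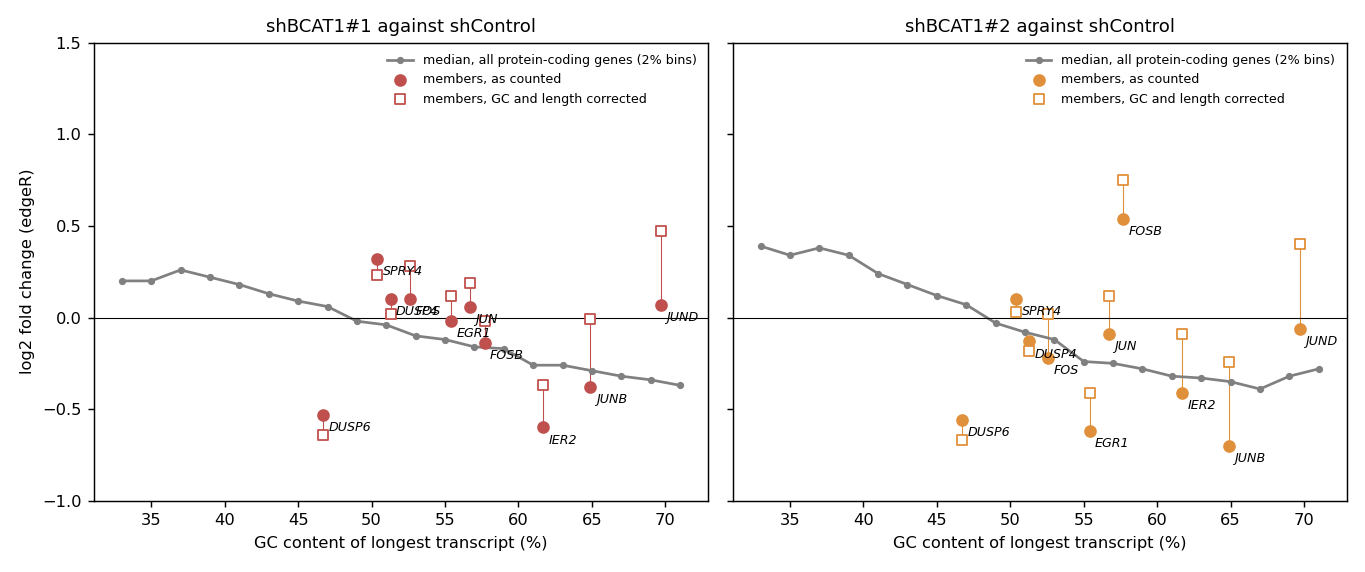
Log2 fold change against control plotted over GC content (%) for hairpin 1 (left) and hairpin 2 (right): the grey line is the median of all protein-coding genes in 2% bins of at least 20 genes, filled points are the 10 genes as counted, and open squares the same genes after correction for GC content and length. JUNB sits near the grey line with hairpin 1 (−0.38 against −0.29) and DUSP6 well below it with both hairpins (−0.53 and −0.56 against 0.06 and 0.07).

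Other genes of the same response were described from lists of textbook members, whose counts are read against the shares of all genes called. Of 28 other immediate early genes, all tested, 11 were higher and 10 lower with hairpin 1 (median log2 fold change 0.16), and 5 were higher and 5 lower with hairpin 2 (median −0.03). Of all genes 24.2% were higher and 24.9% lower with hairpin 1, and 23.9% were higher and 25.4% lower with hairpin 2. After the correction for GC content and length, 15 of the 28 were higher and 10 lower with hairpin 1 (median 0.32), and 8 were higher and 3 lower with hairpin 2 (median 0.03). Of the 13907 genes then tested, 27.9% were higher and 28.5% lower with hairpin 1, and 23.6% were higher and 27.7% lower with hairpin 2. Over both hairpins 10 of the 28 were higher and 9 lower as counted, where 23.6% of all genes were higher and 26.4% lower. After the correction 12 were higher and 6 lower over both hairpins, where 23.1% of genes were higher and 28.7% lower. By smallest p the list was led by ZFP36L1, an RNA-binding protein that speeds decay of AU-rich mRNAs, which fell 1.88-fold (−0.91, SE 0.05, edgeR adjusted p = 4.9e-06), IER3, an early response gene (−1.10, SE 0.10, edgeR adjusted p = 3.1e-05), and IER5L, a relative of IER5 and IER2 (−0.79, SE 0.07, edgeR adjusted p = 3.4e-05). IER3 stood at 20.5 and 21.9 CPM with hairpin 1, 11.4 and 14.7 CPM with hairpin 2, and 35.4 and 36.1 CPM in control libraries.

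A group of early genes chosen after their values were seen rose with hairpin 1, where EGR1 did not pass. EGR3, a relative of EGR1, had 9.9 and 10.4 CPM with hairpin 1, 4.26 and 3.77 CPM with hairpin 2, and 4.31 and 3.75 CPM in control libraries. The hairpin 2 and control libraries overlapped, and the hairpin 1 libraries stood clear of both. EGR3 rose 2.51-fold with hairpin 1 (log2 value 1.33 with an SE of 0.13, edgeR adjusted p = 6.9e-05). The orphan nuclear receptors NR4A1, NR4A2 and NR4A3 rose by 0.94 (SE 0.07), 0.94 (SE 0.16) and 1.00 (SE 0.10) with hairpin 1 (edgeR adjusted p = 1.3e-05, 0.0014 and 6.3e-05), and had values of −0.18, −0.20 and 0.23 with hairpin 2 that did not pass (edgeR adjusted p = 0.062, 0.36 and 0.095). With hairpin 2, NR4A1 passed without replicate 2 of the control (−0.27, edgeR adjusted p = 0.015), and KLF4 (0.57, edgeR adjusted p = 0.18) passed without replicate 1 of the control (1.10, edgeR adjusted p = 0.035). The transcription factors KLF4 and KLF10 and the kinase PLK2 rose by 2.06 (SE 0.31), 0.99 (SE 0.06) and 1.34 (SE 0.11) with hairpin 1 (edgeR adjusted p = 0.00064, 3.1e-06 and 2.3e-05). KLF4 had 2.78 and 2.46 CPM with hairpin 1, 0.891 and 0.976 CPM with hairpin 2, and 0.819 and 0.432 CPM in control libraries, so its values rest on few counts. For each of EGR3, NR4A1, NR4A2, NR4A3, KLF4, KLF10 and PLK2 the hairpins differed (log2 difference from −1.49 for KLF4 to −0.77 for NR4A3, edgeR adjusted p of 0.0033 or less). CCN1, a matrix protein of the early response, was lower with hairpin 1 and higher with hairpin 2 (log2 fold change −2.14 and 0.86, SE 0.09 and 0.08, edgeR adjusted p = 8.2e-07 and 4.4e-05). It had 5.52 and 5.76 CPM with hairpin 1, 46.1 and 44.6 CPM with hairpin 2, and 23.6 and 26.2 CPM in control libraries.

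Of 23 other ERK-induced outputs and feedback genes, 21 were tested. With hairpin 1, 9 were higher and 8 lower (median 0.10), and with hairpin 2, 8 were higher and 9 lower (median 0.10), where 49.1% and 49.3% of all genes were called with hairpins 1 and 2. The corrected medians were 0.05 and 0.08. SPHK1, sphingosine kinase, fell 1.84-fold over both hairpins, EPHA2, a receptor tyrosine kinase induced by ERK, fell 1.56-fold, and ERRFI1, a feedback inhibitor of EGF receptors, fell 1.47-fold (edgeR adjusted p = 4.3e-06, 4.7e-06 and 1e-05). DUSP2, a nuclear ERK phosphatase, rose instead, 3.21-fold with hairpin 1 and 1.42-fold with hairpin 2 (edgeR adjusted p = 9.1e-06 and 0.0072). It stood at 12.8 and 11.9 CPM, 5.4 and 5.55 CPM, and 3.73 and 3.97 CPM in hairpin 1, hairpin 2 and control libraries, and was chosen after its values were seen. Of 12 other AP-1 subunits and dimer partners, 11 were tested, and over both hairpins 4 were higher and 3 lower (median 0.08), where 50% of all genes were called. ATF3, a stress-induced bZIP protein, rose 1.70-fold (edgeR adjusted p = 0.00027). MAFF and MAFK, small MAF proteins, differed between the hairpins (log2 difference, hairpin 2 minus hairpin 1, 0.81 and 1.43, edgeR adjusted p = 7.1e-05 and 1.1e-05). MAFF stood at 15.7 and 14.7 CPM with hairpin 1, 27.7 and 25.8 CPM with hairpin 2, and 30.3 and 29 CPM in control libraries. MAFK stood at 8.27 and 9.55 CPM, 23.8 and 24.1 CPM, and 9.73 and 10.3 CPM in the same groups.

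**Figure D5:**
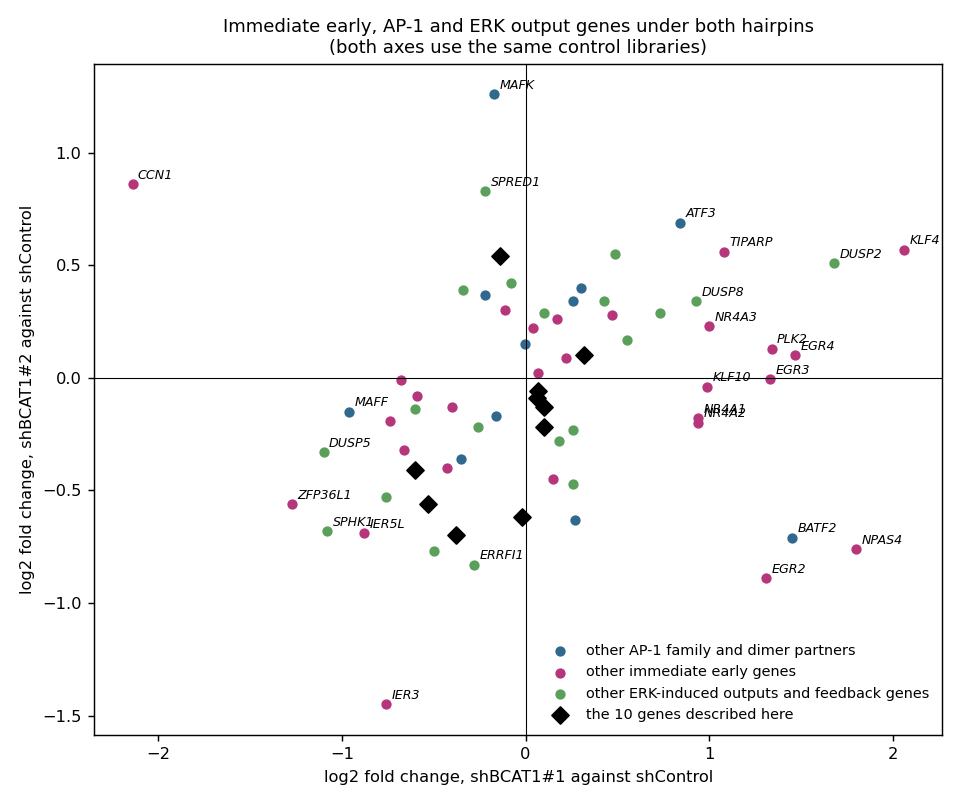
Log2 fold change with hairpin 1 (x axis) and hairpin 2 (y axis) against the same control libraries, for the 10 genes (diamonds) and the tested genes of 3 lists (dots, coloured by list), with names for genes beyond 0.8 on either axis. The 10 genes lie within 0.70 of 0 on both axes, while EGR3, KLF10 and the NR4A genes lie to the right, with y values from −0.20 to 0.23.

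The kinases and factors upstream were described in the same way. Of 30 genes of the RAS-ERK cascade, 11 were higher and 10 lower over both hairpins (median 0.04), where 23.6% of all genes were higher and 26.4% lower. After the correction for GC content and length 6 were higher and 8 lower (median −0.02), where 23.1% of genes were higher and 28.7% lower. The adaptor SHC1 fell 1.73-fold and stood at 276 and 272 CPM with hairpin 1, 519 and 530 CPM with hairpin 2, and 656 and 651 CPM in control libraries. MAP2K2, the ERK kinase MEK2, fell 1.63-fold, and the exchange factor SOS2 rose 1.59-fold (edgeR adjusted p for SHC1, MAP2K2 and SOS2 of 1.5e-06, 2e-05 and 1.7e-05). Of 17 genes of the JNK and p38 cascade 8 were higher and 4 lower (median 0.22), led by the kinases MAP3K1 (0.80, SE 0.05), MAP2K4 (0.83, SE 0.06) and MAP3K5 (0.85, SE 0.06), with edgeR adjusted p from 9e-06 to 1.5e-05. Of 19 transcription factors and cofactors of immediate early promoters 10 were higher and 3 lower (median 0.26), led by the acetyltransferases CREBBP (1.70-fold) and EP300 (1.53-fold) and the ternary complex factor ELK3 (1.32-fold), with edgeR adjusted p from 5.2e-06 to 4.9e-05. After the correction 8 of the JNK and p38 genes were higher and 5 lower (median 0.01), and 8 of the promoter factors were higher and 2 lower (median 0.10). The corrected shares of genes called are those given above for the RAS-ERK cascade. Of 20 textbook AP-1 target genes, 19 were tested. With hairpin 1, 5 were higher and 10 lower (median −0.25), where 24.2% of all genes were higher and 24.9% lower. With hairpin 2, 1 was higher and 15 were lower (median −0.76), where 23.9% of all genes were higher and 25.4% lower. Over both hairpins 3 were higher and 12 lower (median −0.25), where 23.6% of all genes were higher and 26.4% lower. After the correction 2 were higher and 12 lower over both hairpins (median −0.14), where 23.1% of genes were higher and 28.7% lower. Corrected values with hairpin 1 gave 5 higher and 9 lower (median −0.20), where 27.9% of genes were higher and 28.5% lower. Those with hairpin 2 gave 2 higher and 16 lower (median −0.53), where 23.6% of genes were higher and 27.7% lower. By smallest p over both hairpins CCL2, PLAU and CXCL8 led the list, at 5.51-fold, 3.69-fold and 2.35-fold lower (edgeR adjusted p = 5.3e-08, 1.3e-06 and 1.5e-06). Exons of SHC1, MAP3K1, EP300, ELK3, PLAU, SPHK1, ERRFI1, MAFK, IER3, IER5L, EGR3, NR4A1 and CD68 overlap those of another gene, so their reads are uncertain in part.

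Immediate early genes can also respond to handling of cells, for which heat shock genes were read as a companion list. Of 12 heat shock genes 5 were higher and 5 lower over both hairpins (median −0.01), where 50% of all genes were called, with HSPH1 higher (0.54, SE 0.04) and HSPB1 and HSP90AB1 lower (−0.69 and −0.97, SE 0.04 and 0.03; edgeR adjusted p from 1.2e-06 to 1.2e-05). With hairpin 1, 6 were higher and 3 lower (median 0.22), where 24.2% of all genes were higher and 24.9% lower. With hairpin 2, 4 were higher and 6 lower (median −0.13), where 23.9% were higher and 25.4% lower. Between hairpins, 2 were higher and 10 lower with hairpin 2, where 46.2% of all genes were called. The summed level of the 12 genes was 9123 and 8851 CPM with hairpin 1, 8949 and 8927 CPM with hairpin 2, and 10216 and 10290 CPM in control libraries. HSP90AB1 alone stood at 999 and 945 CPM, 2570 and 2560 CPM, and 3090 and 3110 CPM in the same groups. Their part in the values of the early genes was not tested.

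The genes whose levels over the 6 libraries were most like those of the 3 called genes with the largest changes over both hairpins were found by the root mean square difference of centred log2 CPM among 10996 genes. For JUNB these were ZYX, RPS3 and DDN (0.026, 0.027 and 0.028), for DUSP6 RPL27, PFDN5 and PYGL (0.021, 0.023 and 0.024), and for IER2 QTRT1, TUBB3 and ABCB8 (0.021, 0.023 and 0.024). For scale, the spread of each gene around its own mean was 0.29 for JUNB, 0.26 for DUSP6 and 0.25 for IER2 by the same measure.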

How the data were processed

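Total RNA from the cells was made into libraries with an Illumina TruSeq kit, per the labels' protocols. The authors deposited raw counts for each Ensembl gene, as whole numbers, in a table of 64252 rows and 6 columns. Per the submitters' processing notes, HISAT2 version 2.2.0, StringTie and the hg38 build were used; for the annotation release, counting options and strand, the sources used here give nothing. Columns were matched to samples by name. Symbols came from an Ensembl name table that held 56105 of the IDs, and coordinates, exon lengths and GC content from GENCODE release 29 (hg38).

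Tests used R 4.3.3 and edgeR 4.0.16: filterByExpr by group (minimum count 10), TMM scaling, glmQLFit and glmQLFTest with a term per group over all 6 libraries (3 residual degrees of freedom), two-sided, Benjamini-Hochberg adjusted over all 18734 genes, threshold 0.05. The GC and length correction used smooth terms per library (mgcv 1.9.3) as offsets. The scripts were tested on simulated counts with known changes, over both hairpins against control. With no GC trend simulated, 13.8% of the calls were false. With a simulated trend, 97.3% were false without the correction and 17% with it. Both 13.8% and 17% lie above the false share that the threshold of 0.05 aims at. With no trend, these tests called 188 of 18346 genes. With the trend, 5929 of 13707 were called without the correction and 188 with it. In the measured libraries, 9361 of 18734 genes were called over both hairpins. The false share among the measured calls was not tested, and the shares above are not estimates of it. The simulated trend was linear in GC content, a form that the correction can fit. Among the 10 genes, counting error is small at these depths, with the exception of FOSB (45 to 88 counts). KLF4, named beyond the 10, stood lower than FOSB in control and hairpin 2 libraries, at 0.432 to 0.976 CPM. Replicates differed by more than sampling noise (mean chi-square per gene 5.73 to 8.23), so none of the replicate pairs was counted as 1 library. Promoter sequences of 9 of the genes came from RefSeq (GRCh38.p14); none was used for DUSP4. Members and lists were chosen with earlier results of these data known. Named beyond the 10 genes and BCAT1 were the 3 members of each list with the smallest p over both hairpins. The most similar genes were also named, by a fixed rule. Outside these rules, EGR3, NR4A1, NR4A2, NR4A3, KLF4, KLF10, PLK2, CCN1, DUSP2 and FOSL1 were named after their values were seen. MYCN, CD68 and PTPRC were named to describe the marker sums, and FOSL2 as a member of the FOS family. Alternatives were RLE size factors, other filters, DESeq2 1.42.0, limma-voom 3.58.1, a replicate block, leaving out each library, a fit to the compared groups alone, the GC and length correction and a fold threshold of 1.5.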

Additional observations from a re-analysis of the deposited data

Results flagged for a closer look

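The effects of the hairpins differed for 7 of the 10 genes in the test of hairpin 2 against hairpin 1 (edgeR, adjusted p under 0.05). The log2 difference, hairpin 2 minus hairpin 1, was −0.60 for EGR1, −0.33 for FOS, −0.32 for JUNB, −0.23 for DUSP4, −0.22 for SPRY4, 0.19 for IER2 and 0.69 for FOSB. Mean levels with hairpin 2 and hairpin 1 were 91.5 and 139 CPM for EGR1, and 2.22 and 1.38 CPM for FOSB. Of all genes 46.2% were called in the same comparison. The calls of FOS, FOSB, DUSP4, IER2 and SPRY4 did not hold when some single libraries were left out. That of FOSB, which rests on 45 to 88 counts, was also lost in DESeq2 (adjusted p = 0.12).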

How the results depend on the processing

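Over all alternatives other than the fold threshold, the values of the 10 genes kept their direction and their side of the threshold in 569 cases, lost a call in 18, gained one with the same sign in 16 and turned sign in 27, all 27 in values that had not passed. Of these 27, JUN over both hairpins and JUND with hairpin 2 passed with the turned sign after the GC and length correction, with and without the replicate block. The calls over both hairpins of JUNB, EGR1, IER2, DUSP6 and SPRY4 held in each of these alternatives. The cause of the changes was not tested.

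The GC and length correction, with or without the replicate block, turned FOSL1 to 0.01 (hairpin 1) and 0.11 (hairpin 2), JUN to 0.15 (both hairpins) and 0.12 (hairpin 2), FOS to 0.15 (both hairpins) and 0.02 (hairpin 2), EGR1 with hairpin 1 to 0.12, JUND with hairpin 2 to 0.40 and EGR3 with hairpin 2 to 0.03. EGR3 with hairpin 2 was also 0.002 with RLE size factors and with DESeq2, 0.01 with the CPM filter and 0.003 with only the groups compared, and JUND over both hairpins was −0.001 without a filter. With 1 library left out at a time, values over both hairpins ran from −0.13 to 0.01 for FOS, −0.09 to 0.06 for JUN, −0.05 to 0.01 for DUSP4 and −0.03 to 0.03 for JUND. With hairpin 1 they ran from −0.30 to 0.02 for FOSB, −0.01 to 0.13 for JUN and −0.08 to 0.03 for EGR1, and with hairpin 2 from −0.10 to 0.09 for EGR3 and −0.12 to 0.004 for JUND. DUSP6 between hairpins ran from −0.06 to 0.01, and calls among the 10 genes between hairpins from 2 to 8.

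Above a fold of 1.5, glmTreat called 1039 genes over both hairpins, 1769 with hairpin 1, 1397 with hairpin 2 and 1774 between hairpins, against 9361, 9199, 9236 and 8650 in the plain test, and 0, 0, 1 and 0 of the 10 genes. The replicate numbers did not pair libraries (correlations of deviations −0.03, 0.004 and −0.04), and the replicate block gave 9002, 8802, 8841 and 8219 called genes and 5, 4, 4 and 7 of the 10, changing none of the calls on named genes. Protein-coding genes without the correction, an alternative chosen after seeing the data, also gave 5, 4, 4 and 7 of the 10. Of the 13907 protein-coding genes, 8425, 8375, 8388 and 8040 were called without the correction, against 7203, 7847, 7133 and 8277 with it. Among the 10 genes, depth limits FOSB most, at 45 to 88 counts.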
